A study of Sus scrofa with 22 samples.

Results

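Organoids grown from the taste epithelium of the pig tongue in 1 medium, LPM, were compared across the 3 experiments of the series that used it. The 11 LPM libraries, of 22 in all, were taken by their labels. Of these, 5 were passage 1 organoids from foliate papillae of 5 pigs, 3 were the LPM controls of an experiment that withdrew FGF10 from the medium, and 3 were the LPM controls of an experiment that finished cultures in a second medium, CQ. These groups are called here passage 1 organoids, organoids of the FGF10 experiment and organoids of the CQ experiment, and all 11 libraries are from cultures in LPM. The labels do not spell out the abbreviations. For the first 2 groups the labels list what LPM contained. Its proteins were R-spondin 2 (500 ng/ml), noggin, FGF10, Wnt3a and SHH (each 100 ng/ml), EGF (50 ng/ml), insulin (10 nM) and FGF2 (10 ng/ml). Small molecules were the ROCK inhibitor Y-27632 at 10 µM, the TGF-beta receptor inhibitor A-83-01 at 0.5 µM, the p38 inhibitor SB202190 at 10 µM, the GSK3 inhibitor CHIR99021 at 2.5 µM, prostaglandin E2 at 20 nM, forskolin at 1 µM, N-acetyl-cysteine at 1.25 µM and nicotinamide at 10 mM. The base was an insulin-free supplemented DMEM/F12, and feeding was every 48 h. For the CQ experiment the labels name LPM without its contents, and no culture age is recorded for any of the 11 libraries. The labels call the replicates of the FGF10 experiment biological and those of the CQ experiment samples, and give the source animal of neither. If they came from 1 line, p-values against them measure only the spread between cultures.

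Taste buds are renewed from progenitors of the surrounding stratified epithelium. These cells carry KRT5, a basal keratin, and SOX2, a transcription factor needed for taste cell formation, while maturing taste bud cells switch to the simple-epithelium keratin KRT8. SHH is the Hedgehog ligand of immature taste bud cells. Organoid cultures hold such cells in a mix of dividing and maturing states, which Wnt, FGF and Notch signals shift. In RNA from whole cultures, fewer cells of a type and less RNA per cell cannot be told apart.

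The 11 libraries held, in units of 1e6 counts, 18.91 to 26.5 in the 26838 genes present in both annotations used, and mitochondrial protein genes took 2.67 to 4.08% of counts. The 3 groups differ in more than their cells. Libraries of the CQ experiment were counted by the authors with another version of featureCounts and another annotation, in which 82 of the shared genes have other exon coordinates. Labels of that experiment also name a second RNA kit beside the one given for all. Experiment, source animals, culture age, extraction and annotation cannot be told apart, so every difference below is a difference between experiments. Values are CPM, counts per 1e6 counts of the library after TMM scaling, and differences are log2 fold changes of the fitted model. Where a pair of differences is given for the CQ experiment, the first is from the pigs and the second from the FGF10 experiment.

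Organoids of the FGF10 experiment lay near the passage 1 organoids, and organoids of the CQ experiment lay apart from both. The typical gene differed by a log2 value of 0.0836 to 0.0976 (median absolute difference) between libraries of the FGF10 experiment, by 0.123 to 0.281 between libraries of the CQ experiment and by 0.16 to 0.49 between pigs. Across groups it was 0.258 to 0.436 between the FGF10 experiment and the pigs, within the range seen among the pigs themselves. Against the CQ experiment it was 0.497 to 0.628 from the pigs and 0.541 to 0.599 from the FGF10 experiment, more in each such pair than in any pair of pigs. All 3 libraries of the FGF10 experiment lay inside the range of the 5 pigs for 57.1% of 14947 genes, above it for 10.7% and below it for 9.39%. For the CQ experiment the shares were 26.0% inside, 21.9% above and 19.2% below. Of the 3 libraries of the CQ experiment, replicate 3 stood farther from the other two: the median SD of a gene in the group was 0.186 on the log2 scale with it and 0.0871 without it. Among the pigs, pig 4 stood apart, with 428 genes at least 2-fold above and 211 at least 2-fold below every other pig, against 19 to 146 such genes per direction for the rest.

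**Figure D1:**
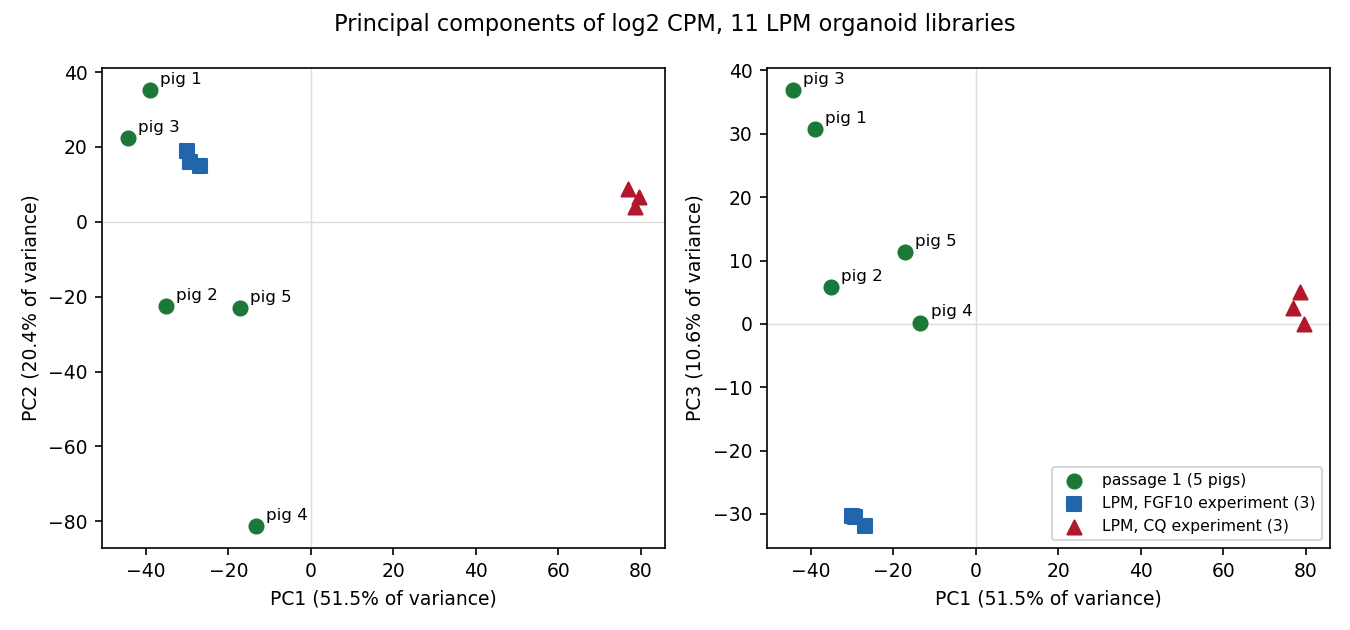
Principal components of log2(CPM + 0.5) over 14947 genes, with 1 point per library and PC1 on each horizontal axis. PC1 (51.5% of the variance) sets the 3 libraries of the CQ experiment, at 76.8 to 79.6, apart from the others, all below 0; PC2 (20.4%) spreads the pigs, with pig 4 at -81.3, and PC3 (10.6%) sets the FGF10 experiment apart.

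The 4 markers of the organoid state were present in all 11 libraries. In Sscrofa11.1 coordinates of the deposited annotation, SOX2 lies on chromosome 13 (119668476 to 119669435), KRT8 and KRT5 on chromosome 5 (18172423 to 18180277 and 17862047 to 17868397) and SHH on chromosome 18 (2546202 to 2555484). SOX2 stood at 524, 206, 338, 188 and 278 CPM in pigs 1 to 5, at 436, 443 and 427 CPM in the FGF10 experiment and at 230, 220 and 206 CPM in the CQ experiment. The FGF10 experiment was above all but pig 1, and the CQ experiment fell within the range of the pigs. SOX2 was lower in the CQ than in the FGF10 experiment by a log2 difference of -1.02 (SE 0.08, adjusted p = 5.59e-06), while neither differed from the pigs past the threshold (0.51 for the FGF10 experiment, adjusted p = 0.384, and -0.52 for the CQ experiment, adjusted p = 0.215). KRT8 stood at 1160, 2640, 1640, 2830 and 3240 CPM in the pigs, at 1860, 1840 and 1820 CPM and at 1360, 1360 and 1800 CPM in the FGF10 and CQ experiments. Both experiments sat inside the span of the pigs, and the differences from them were -0.32 (95% interval from the fit -1.04 to 0.39) and -0.64 (-1.37 to 0.08). In the edgeR test of any difference between the 3 groups, SOX2 (adjusted p = 0.0507) and KRT8 (0.203) missed the threshold. KRT5 (0.000512) and SHH (0.00452) passed it. In foliate papillae of the 5 pigs, used only as a reference, SOX2 was at 57.7 to 76.5 CPM and KRT8 at 224 to 566 CPM, below every organoid library. Papillae also hold gland, muscle and fibroblast RNA, so these are not levels per epithelial cell.

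KRT5 was at 2090, 1840, 1530, 1260 and 2280 CPM in the pigs, at 4470, 4570 and 4450 CPM in the FGF10 experiment and at 2030, 2020 and 2490 CPM in the CQ experiment. Only the FGF10 experiment was above all pigs, by 1.32 (SE 0.20, adjusted p = 0.0388), and that call was lost without any 1 of its 3 libraries (adjusted p 0.25 to 0.264) or without pig 3 (0.077). The CQ experiment was lower than the FGF10 experiment by a log2 difference of -1.08 (SE 0.09, adjusted p = 8.27e-06). SHH was at 99.9, 36.7, 76.5, 31.9 and 152 CPM in the pigs, at 147, 140 and 134 CPM in the FGF10 experiment and at 27.1, 23.7 and 23.4 CPM in the CQ experiment, where it was below every other organoid library. The difference of the CQ experiment was -2.54 from the FGF10 experiment (SE 0.09, adjusted p = 1.96e-07) and -1.71 from the pigs (SE 0.46, adjusted p = 0.022). The latter missed the threshold without any 1 library of the CQ experiment (adjusted p 0.0697 to 0.0793).

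TP63, the master transcription factor of basal stratified epithelium, had 32 to 79.8 CPM in the pigs, 108, 109 and 116 CPM in the FGF10 experiment and 164, 148 and 151 CPM in the CQ experiment. The 3 groups did not overlap, and the CQ experiment was higher than the pigs by 1.33 (SE 0.26, adjusted p = 0.00435) and than the FGF10 experiment by 0.44 (SE 0.08, adjusted p = 0.000882). The latter was lost in the fit of all 11 libraries (adjusted p = 0.165). KRT5 was thus highest in the FGF10 experiment and TP63, another basal gene, in the CQ experiment. LGR6, an R-spondin receptor of taste progenitors, ranged from 10.4 to 202 CPM among the pigs, with pig 4 highest, and stood at 38.8, 42.9 and 47.6 CPM and at 16, 14 and 17.6 CPM in the FGF10 and CQ experiments. It was lower in the CQ than in the FGF10 experiment by a log2 difference of -1.47 (SE 0.11, adjusted p = 5.15e-06), a call lost in the fit of all 11 libraries (adjusted p = 0.2).

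**Figure D2:**
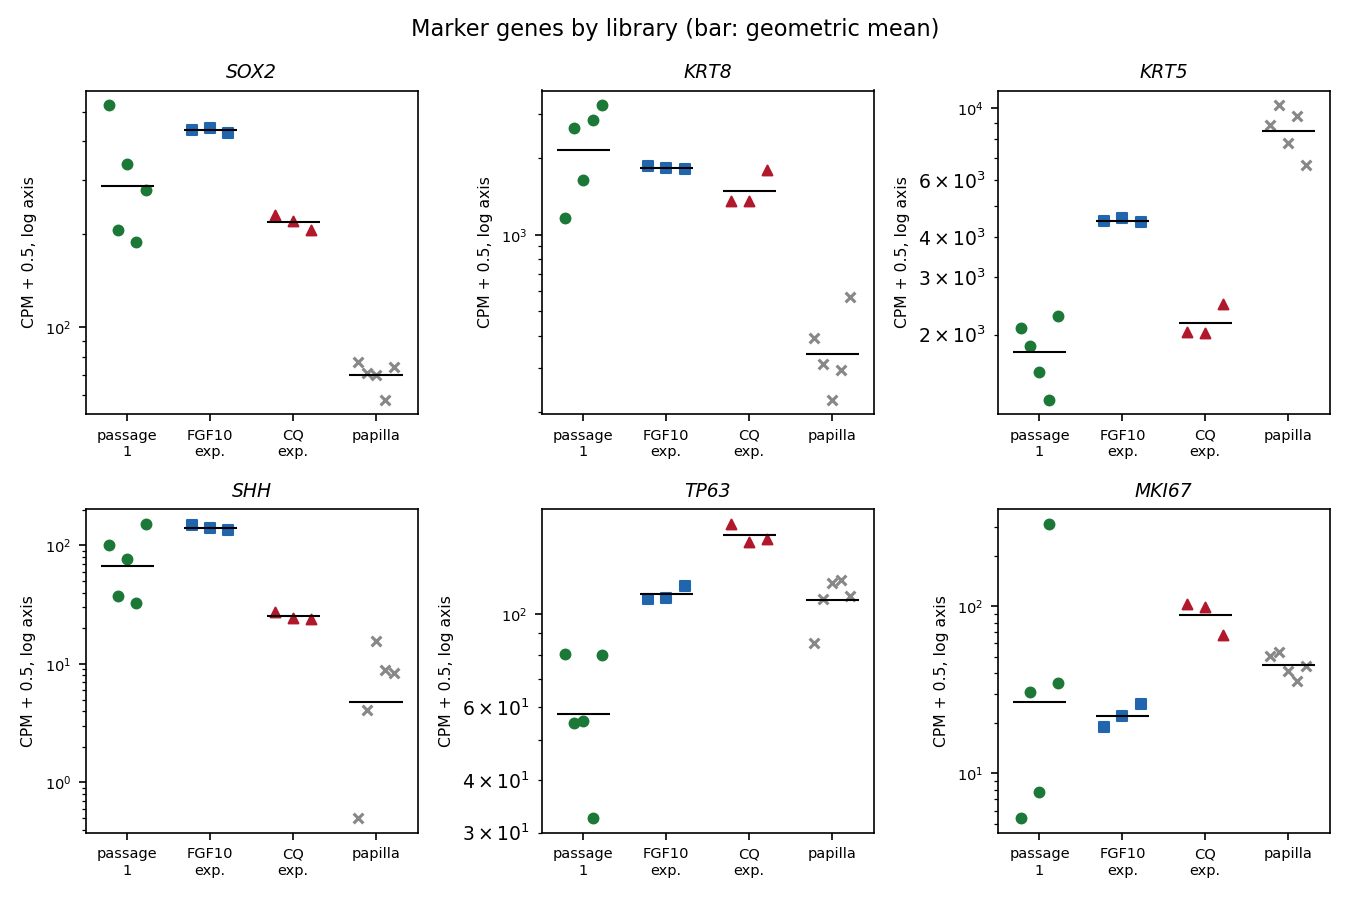
CPM + 0.5 on a log axis for 6 marker genes, with 1 point per library, a bar at the geometric mean, and papillae as a reference. SHH and SOX2 are low in the CQ experiment against the FGF10 experiment, KRT5 is high in the FGF10 experiment among the organoids, and MKI67 of pig 4 (312 CPM) lies far above the other pigs.

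A stable core was defined by range and not by a test: at least 10 CPM in each of the 11 libraries, with the highest library at most 2-fold above the lowest. Of 8300 genes that reached the level, 3617 (43.6%) met the ratio, and they took 29.5 to 36.9% of the counts of a library. The limit is a point on a continuum, with TIMM13 just inside at a ratio of 1.99982 and ZBED4 and MMGT1 just outside at 2.00006 and 2.00015. For 3489 core genes, the 95% intervals of all 3 pairwise fold changes also lay within 2-fold. Small shifts were still resolved: 1336 core genes (36.9%) passed the test of any difference between the 3 groups, which 50.0% of all genes passed. Both the intervals and that test read the same values that chose the core, so nothing is drawn from either.

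Per kilobase of transcript, the most abundant core genes were led by the translation apparatus. RPLP1 (2790 CPM per kilobase), RPL8 (1830), RPL13 (1230), RPL3 (896) and FAU (800) encode ribosomal proteins, EEF2 (1230) and EEF1G (1060) elongation factors, and RACK1 (1340) a ribosome-bound scaffold. EEF2 had 4590, 4200, 4630, 3380 and 3430 CPM in the pigs, 4720, 4490 and 4350 CPM in the FGF10 experiment and 4530, 4690 and 4160 CPM in the CQ experiment. Its highest library was 1.39-fold above its lowest, and the groups overlapped. Others were the mitochondrial ADP/ATP carrier SLC25A6 (2180 CPM per kilobase), the serine protease inhibitor SPINT2 (915), the membrane-binding annexin ANXA2 (865), the cytokine MIF (702), the lysosomal precursor PSAP (673), the calcium-binding S100A11 (662) and the chaperone HSP90AB1 (661). The narrowest ranges among genes of at least 100 CPM were those of COPB2, EIF4H, SZRD1, AP2M1 and ABCD3, with highest-to-lowest ratios of 1.16 to 1.21. COPB2, a coat protein of Golgi vesicles, had 145 to 167 CPM in the pigs and 149 to 160 CPM in the other 6 libraries. EIF4H, a translation initiation factor, had 336 to 390 CPM over the 11 libraries.

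The core also held some regulators of epithelial identity, but none of the markers SOX2, KRT8, KRT5 and SHH. SOX9, a progenitor transcription factor, was at 194, 263, 197, 168 and 181 CPM in the pigs, 219, 197 and 207 CPM in the FGF10 experiment and 270, 270 and 261 CPM in the CQ experiment, against 25.3 to 52.4 CPM in papillae. The CQ experiment lay above all the others but pig 2. Of 11 taste stem and progenitor genes that reached 10 CPM everywhere, 2 were in the core, SOX9 and PTCH1. Of 19 oral and epithelial transcription factors that reached 10 CPM everywhere, 7 were in the core, beside 43.6% of all genes. These were GRHL2, EHF, ELF3, KLF5, FOXA2, TFAP2A and NKX2-3. ELF3 stood at 632 to 1180 CPM, against 61.6 to 167 CPM in papillae, and GRHL2, which maintains epithelial junctions, at 70.2 to 116 CPM, against 75.8 to 86.9 CPM in papillae. The adhesion genes EPCAM (460 to 735 CPM) and CLDN7 (219 to 417 CPM) were core members, as were the basement membrane genes ITGB1 (351 to 687 CPM) and LAMA3 (102 to 203 CPM). Few signalling genes were, with 2 of 18 FGF and ERK targets, 1 of 12 Notch genes, 1 of 8 Wnt targets and 1 of 6 Hedgehog genes, beside 43.6% of all genes. The adhesion genes above were 2 of 12 taste bud epithelium genes, and the basement membrane genes 2 of 14 basal epithelium genes. PTCH1, the SHH receptor and a Hedgehog target, had 11.2 to 21.8 CPM, ETV4 and SPRED2, which respond to FGF signals, 122 to 185 and 45.8 to 65.1 CPM, the Wnt antagonist APCDD1 16.8 to 30.8 CPM and the Notch effector HES1 47 to 90.7 CPM.

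Membership differed between gene lists, always counted over members at 10 CPM or more in all 11 libraries and read beside the 43.6% of all such genes. The p53 and apoptosis list had 5 of 10 in the core (MDM2, ZMAT3, TP53INP1, RRM2B and AEN), oxidative phosphorylation 6 of 16 (NDUFA9, NDUFB10, NDUFS3, SDHA, SDHB and SDHD) and the ATF4 and unfolded protein response 7 of 24, among them XBP1, CALR and PDIA4. Glycolysis and hypoxia had 6 of 30, including the glycolytic enzymes PKM (2260 to 3870 CPM), ALDOA and GPI. Cytosolic ribosomal proteins had 7 of 49. No member was in the core for cholesterol synthesis (0 of 19), suprabasal and cornified epithelium (0 of 9), secretory epithelium and mucins (0 of 9), cell cycle (0 of 6) and BMP and TGF-beta targets (0 of 6). Most lists lay under the share of all genes.

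**Figure D3:**
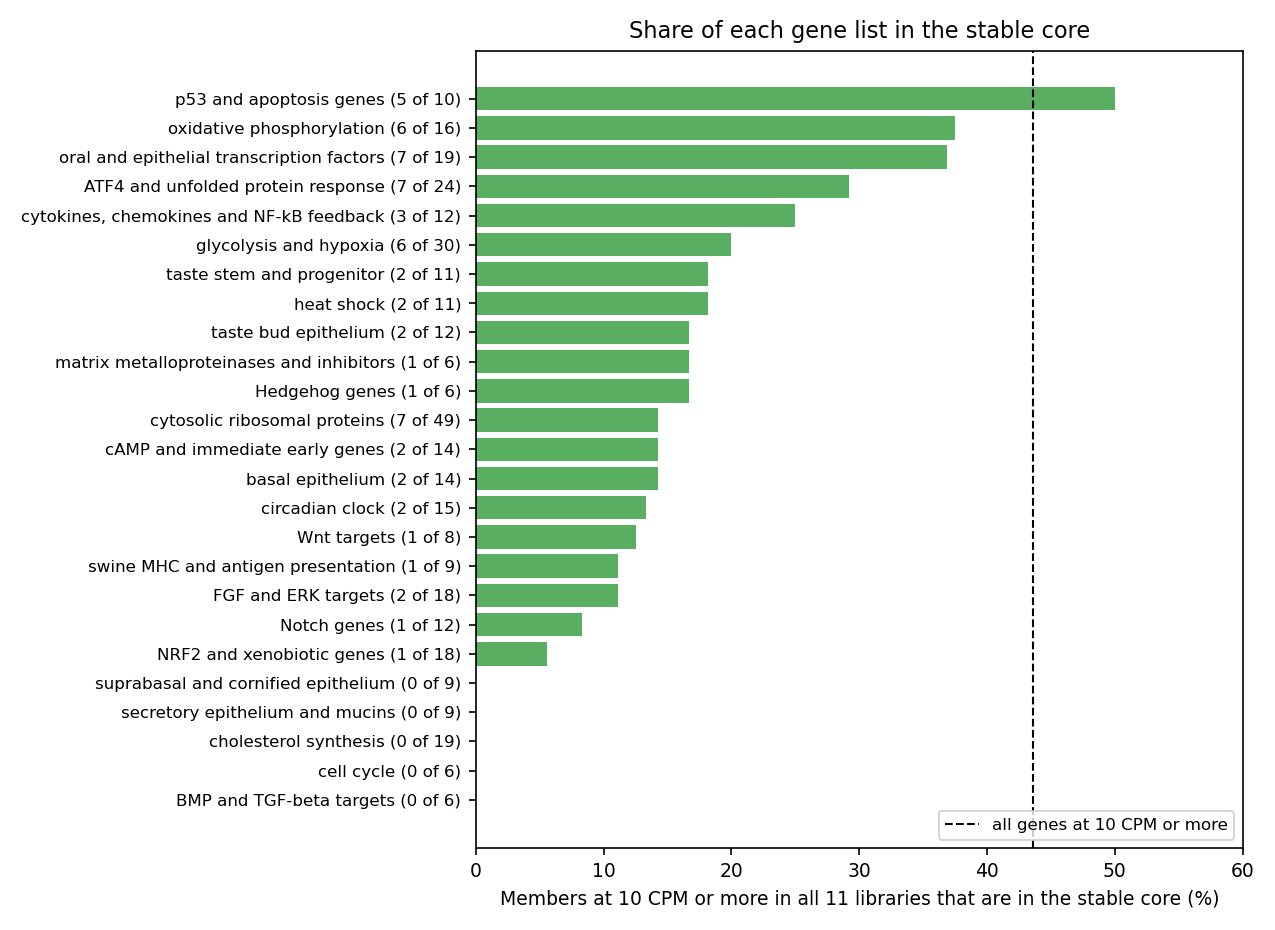
Share of list members, among those at 10 CPM or more in all 11 libraries, that were in the stable core, for lists with at least 6 such members, with counts in brackets and a dashed line at the 43.6% of all genes. The p53 and apoptosis list (5 of 10) lies above the line, and 5 lists have no core member.

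Papillae were set beside the core without a test. They are whole tissue, and their 10 most abundant genes took 16.43 to 37.5% of counts in shared genes, against 4.29 to 8.31% in organoids. CPM is a share of counts, and the part of cell mix in the differences from papillae was not tested. All 11 organoid libraries lay above every papilla for 1462 core genes (40.4%) and below every papilla for 310 (8.57%). Among the 4683 other genes at 10 CPM or more the shares were 32.5 and 8.41%. By means, 63 core genes were at least 4-fold above papillae. Among listed core genes RRM2B, a p53-induced ribonucleotide reductase subunit, was at 97.4 to 184 CPM in organoids and 7.21 to 13.2 CPM in papillae, and ZMAT3, another p53 target, at 98 to 196 against 14.3 to 20.6 CPM. PLAUR, the urokinase receptor, was at 16.2 to 28.6 against 2.3 to 7.11 CPM. NFKBIZ, a nuclear NF-kB regulator, lay below the papillae instead, at 16.1 to 29.8 against 68.3 to 74.4 CPM.

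Passage 1 organoids of the 5 pigs varied more than the replicates of either experiment. The median SD of a gene was 0.331 on the log2 scale over pigs (0.284 without pig 4) and 0.0778 in the FGF10 experiment, and the SD exceeded 1 for 5.70% of genes over pigs. Genes with the largest SD over the pigs among well-expressed genes split them in different ways. DIO3, which inactivates thyroid hormone, had 178, 110, 58.1, 1.01 and 0.0689 CPM in pigs 1 to 5, and 0 counts in all 6 other libraries, where 0 counts over a group allow at most 0.0452 CPM (FGF10 experiment) and 0.0529 CPM (CQ experiment). SLC5A7, a choline transporter, had 15.3, 27.8 and 12.3 CPM in pigs 1 to 3 and 0.225 and 0.138 CPM in pigs 4 and 5. The kallikrein proteases of the cornifying epithelium separated pigs 1 and 3 from the rest: KLK14 had 123 and 86.1 CPM in these and 1.16 to 4.9 CPM in the other three, and KLK10 40.4 and 28.4 CPM against 0.375 to 2.59 CPM. ASPG, an asparaginase, was at 44.9, 31.6 and 16.7 CPM in pigs 1, 3 and 5 and at 0.527 and 0.45 CPM in pigs 2 and 4. BPI, an antibacterial protein, ran from 0.174 CPM in pig 1 to 299 CPM in pig 4, and DMBT1, a mucosal scavenger protein, from 0.869 CPM in pig 1 to 114 CPM in pig 4. PCLAF, which binds the replication clamp PCNA, ran from 1.24 CPM in pig 3 to 119 CPM in pig 4. These genes were chosen for their spread, which is a description.

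Against passage 1 organoids, the FGF10 experiment differed at 82 of 14757 genes (0.556%), 56 higher (0.379%) and 26 lower (0.176%). The number rests on few libraries. It was 0 without any 1 library of the FGF10 experiment (the number with unadjusted p under 0.05 was 2852 of 14757 with all libraries), 12 without pig 3 and 496 without pig 4. It was 1318 with DESeq2 and 1639 with limma-voom and 1 weight per group. Scaling by library size alone turned the split to 40 higher and 54 lower and moved the median of all genes from -0.06 to -0.18. No call named below is therefore kept without any 1 library of the FGF10 experiment, and the largest adjusted p when 1 of them is left out stands beside the value.

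Of the well-expressed called genes (log2 CPM averaging 3 or more) whose groups did not overlap, the largest differences upward were in C7H6orf15, NGFR, CLCA2, SCD5, PCSK1N and SULF1. C7H6orf15 had 5640, 3760, 5880, 1760 and 6210 CPM in the pigs and 30100, 30900 and 30200 CPM in the FGF10 experiment, a log2 difference of 2.71 (SE 0.37, adjusted p = 0.0309, at most 0.24 without 1 library). Every library of the FGF10 experiment was above every pig. In the CQ experiment it had 12000, 12500 and 16600 CPM, and in papillae 631 to 1430 CPM. NGFR, a neurotrophin receptor of basal epithelial cells as well as nerve, had 274, 344, 223, 136 and 200 CPM in the pigs and 831, 817 and 837 CPM in the FGF10 experiment (difference 1.82, adjusted p = 0.0311, at most 0.24 without 1 library). CLCA2, a p63-linked basal epithelial protein, rose by 1.77 (adjusted p = 0.0388, at most 0.264), SCD5, a fatty acid desaturase, by 1.97 (0.0188, at most 0.181), SULF1, which trims heparan sulfate and so tunes growth factor binding, by 2.12 (0.0419, at most 0.264) and the secretory-granule protein PCSK1N by 1.93 (0.0293, at most 0.236). All but PCSK1N were also above all pigs in the CQ experiment. PCSK1N was there at 102, 109 and 155 CPM beside 78.5 to 185 CPM in the pigs.

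Downward, BARX2, a homeobox factor of oral epithelium, had 40.9, 80.6, 108, 82.9 and 98.7 CPM in the pigs and 23.7, 22.3 and 19.5 CPM in the FGF10 experiment (-1.91, SE 0.27, adjusted p = 0.0401, at most 0.274 without 1 library). It was at 9.56, 8.47 and 10.9 CPM in the CQ experiment, the lowest of the organoids, and at 143 to 217 CPM in papillae. CREB5, a cAMP-response-element binding factor, had 15.3 to 21.4 CPM in the pigs, 6.13 to 6.48 CPM in the FGF10 experiment (-1.51, adjusted p = 0.0278, at most 0.24) and 1.55 to 1.93 CPM in the CQ experiment. BCAR3 (-1.67, adjusted p = 0.0388, at most 0.264), a signalling adaptor, and ISLR (-1.88, 0.048, at most 0.29) followed the same order of groups. CLK1, a kinase that regulates splicing, did not: it had 42.6, 40.3, 45.7, 35.5 and 62.1 CPM in the pigs, 18.7, 18.6 and 18.8 CPM in the FGF10 experiment (-1.27, adjusted p = 0.034, at most 0.264) and 190, 213 and 234 CPM in the CQ experiment. Of the lists, basal epithelium had 3 of 15 members called, all higher, with a median of 0.80 beside -0.06 over all genes, and 11 of 15 members above every pig, where 20.2% of all genes did not overlap in either direction.

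The CQ experiment differed from passage 1 organoids at 5603 of 14768 genes (37.9%), 2703 higher (18.3%) and 2900 lower (19.6%), of which 1096 and 1660 by at least 2-fold. From the FGF10 experiment it differed at 9862 of 14230 genes (69.3%), 4854 higher (34.1%) and 5008 lower (35.2%). The groups did not overlap at 41.4% of genes in the first of these comparisons and at 73.8% in the second. The higher number in the latter goes with replicates that lie closer together, and the 2 comparisons share the libraries of the CQ experiment. In 1 fit of all 11 libraries, where the spread of the pigs enters every comparison, 6922 and 6545 genes were called. With library size alone the first split was 1583 higher and 4352 lower, and the median over all genes went to -0.31 there (from -0.07) and to -0.15 in the second comparison (from -0.03). Without replicate 1 or 2 of the CQ experiment the first number was 3241 and 3271. With 37.9 and 69.3% of genes called, a call for a member is common, so the lists below are read by their medians and by values per library. By library size alone the medians of glycolysis and hypoxia, clock, heat shock, metalloproteinase and cAMP genes against the pigs turn below 0, at -0.06, -0.05, -0.03, -0.21 and -0.15.

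**Figure D4:**
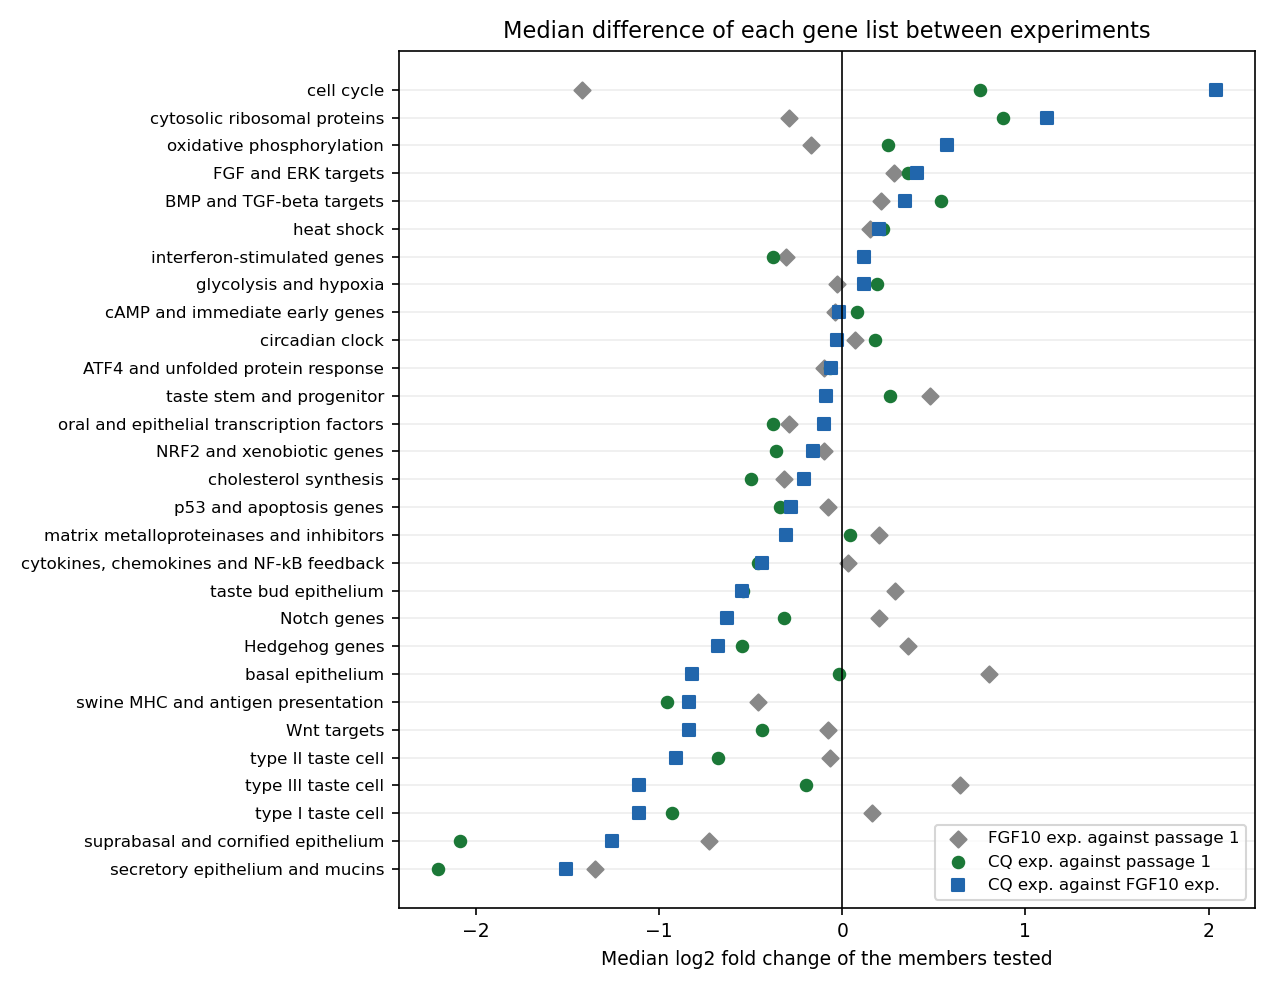
Median log2 fold change of the tested members of each list, for the 3 pairs of groups, which share libraries; lists with under 5 tested members in any pair and lists of other cell types are not drawn. Of those drawn, cell cycle (2.04) and cytosolic ribosomal proteins (1.12) lie highest in the CQ experiment against the FGF10 experiment, and secretory epithelium (-1.51) and suprabasal epithelium (-1.26) lowest.

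Keratins held members of both signs, while the claudins given here, CLDN3 and CLDN7, had lower means in the CQ experiment. KRT7, a simple-epithelium keratin, had 915, 1730, 903, 1480 and 830 CPM in the pigs, 1590, 1610 and 1630 CPM in the FGF10 experiment and 232, 244 and 326 CPM in the CQ experiment. No library of the CQ experiment came within 2-fold of any other organoid library, and the log2 difference was -2.16 from the pigs (SE 0.28, adjusted p = 0.00116) and -2.63 from the FGF10 experiment (SE 0.11, adjusted p = 4.11e-07). CLDN3, a tight junction protein, had 206 to 511, 236 to 254 and 33 to 43.9 CPM in the pigs, the FGF10 and the CQ experiment (-3.11 and -2.72 for the CQ experiment, adjusted p = 0.000507 and 1.96e-07). KRT10, a suprabasal keratin, was higher than in the FGF10 experiment (0.72, adjusted p = 0.00427). Its difference of 0.63 from the pigs (adjusted p = 0.0486) lost the call by library size alone (0.37, adjusted p = 0.202) and without any 1 library but pig 5 (adjusted p 0.0573 to 0.213). KRT8, KRT19 and CLDN7 were lower than in the FGF10 experiment (-0.33, -0.76 and -0.55, adjusted p = 0.0186, 0.000269 and 0.00291, and 0.485, 0.0908 and 0.0587 in the fit of all 11 libraries), the first also lost without replicate 1 or 2 of either experiment (adjusted p 0.0568 to 0.0869). They did not pass against the pigs (-0.64, -0.46 and -0.46, adjusted p = 0.152, 0.298 and 0.115). The taste bud epithelium list as a whole had 2 of 13 members higher and 5 lower against the pigs, and 3 higher and 9 lower against the FGF10 experiment, with medians of -0.54 and -0.55. KRT20, a keratin of taste bud cells, was among those higher, at 587, 545 and 586 CPM beside 49.7 to 296 CPM in the pigs and 312 to 321 CPM in the FGF10 experiment (2.13 and 0.82, adjusted p = 0.0093 and 9.08e-06, the latter 0.194 in the fit of all 11 libraries). The splicing regulator ESRP1, at 270 to 313 CPM beside 141 to 213 CPM in all the others, was higher too.

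Of suprabasal and cornified epithelium genes, 11 of 20 were lower and 1 higher against the pigs (median -2.09), and 12 of 18 lower and 2 higher against the FGF10 experiment (median -1.26). KRT4, the keratin of non-cornified mucosa, had 156, 1440, 387, 900 and 746 CPM in the pigs, 385, 462 and 433 CPM in the FGF10 experiment and 70, 75.7 and 88.5 CPM in the CQ experiment, against 19000 to 43700 CPM in papillae. It was lower than in every other organoid library, by -3.25 (adjusted p = 0.00496) and -2.49 (adjusted p = 2.9e-07). KRT23 followed at 29.9 to 34.6 CPM beside 217 to 862 and 162 to 177 CPM, and the alarmin S100A12 at 30.5 to 45.3 CPM beside 79.6 to 209 CPM. Of basal epithelium genes, 12 of 15 were lower and 3 higher than in the FGF10 experiment (median -0.82), but against the pigs 3 were higher and 2 lower (median -0.02). PDPN, a mucin-like protein of basal cells, had 7.38, 8.36 and 11.5 CPM in the CQ experiment and 35.4 to 124 CPM in all other organoids (-3.06 and -2.79, adjusted p = 0.00208 and 5.67e-07). ITGB1, a core gene, had the opposite sign, at 650 to 687 CPM beside 351 to 423 and 514 to 522 CPM (0.79 and 0.33, adjusted p = 0.00214 and 0.00254).

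Secretory genes were mostly lower in the CQ experiment. MUC5AC, a gel-forming mucin, had 11.4, 331, 423, 861 and 267 CPM in the pigs and 97.7, 199 and 42.4 CPM in the FGF10 experiment, but 0.0572, 0.055 and 0.142 CPM in the CQ experiment. The lowest of the first 8 libraries, pig 1, was far above the highest of the last 3. The adjusted p was 0.00109 against the pigs and 1.01e-05 against the FGF10 experiment (0.0952 with limma-voom and 1 weight per group). The membrane mucin MUC20 had 2.8 to 4.29 CPM in the CQ experiment and 6.91 to 59.9 CPM elsewhere, and the antiproteases SLPI and WFDC2 had 10.5 to 15.3 and 195 to 278 CPM beside 38.6 to 113 and 602 to 1420 CPM. In all, 12 of 20 members were lower and 1 higher against the pigs (median -2.21), and 11 of 18 lower and 3 higher against the FGF10 experiment (median -1.51). BPIFA1, a secreted airway and oral defence protein, had the opposite sign, with 12.2, 949, 193, 769 and 144 CPM in the pigs, 48.6, 42 and 47.2 CPM in the FGF10 experiment and 3720, 3430 and 4590 CPM in the CQ experiment. The difference was 6.38 from the FGF10 experiment (SE 0.11, adjusted p = 1.03e-08) and 3.21 from the pigs (SE 0.96, adjusted p = 0.0275). The latter was lost without pig 3, pig 5 or any 1 library of the CQ experiment (adjusted p 0.0536 to 0.0743), and BPIF genes form a family of like sequences whose reads could be split.

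Several genes expressed in all 8 other libraries were at or near 0 counts in the CQ experiment. SERPINH1, the collagen chaperone, had 28.3, 20.3, 29.4, 5.86 and 18.1 CPM in the pigs, 20, 19.9 and 18.2 CPM in the FGF10 experiment and 0 counts in all 3 libraries of the CQ experiment. Taken against a floor of 3 counts over the group, it was at least 374-fold lower than in the pigs and at least 367-fold lower than in the FGF10 experiment. PAX1, a pharyngeal pouch transcription factor, had 4569 counts in the pigs, 1949 in the FGF10 experiment and 2 in the CQ experiment, a ratio of 1050 from the pigs (95% counting interval 291 to 8700) and 833 from the FGF10 experiment (230 to 6880). SDK1, a cell adhesion protein, had 6540, 2232 and 2 counts, a ratio of 1510 (417 to 12400) and 954 (264 to 7880). IRX1, a patterning homeobox gene, had 18.7 to 46 CPM in the pigs, 16.1 to 18.9 CPM in the FGF10 experiment and 0 to 0.172 CPM in the CQ experiment. MMP14, a membrane-bound collagenase, had 130, 66.7, 134, 21.3 and 71.9 CPM in the pigs, 97.4, 99.6 and 94 CPM in the FGF10 experiment and 1.2, 1.49 and 0.995 CPM in the CQ experiment (-6.13 and -6.34, adjusted p = 0.000431 and 1.03e-08). All 5 have the same exon coordinates in both annotations. Upward, THBS4, a matrix glycoprotein, had 2.4 to 13.6 CPM in the pigs, 30, 36.7 and 35.2 CPM in the FGF10 experiment and 680, 638 and 671 CPM in the CQ experiment (6.62 and 4.25, adjusted p = 7.73e-05 and 1.5e-08). BMI1, a Polycomb repressor linked to stem cell renewal, had 85.1 to 99.1 CPM beside 20 to 27.9 CPM in all others (1.87 and 2.11, adjusted p = 6.79e-05 and 2.4e-07).

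**Figure D5:**
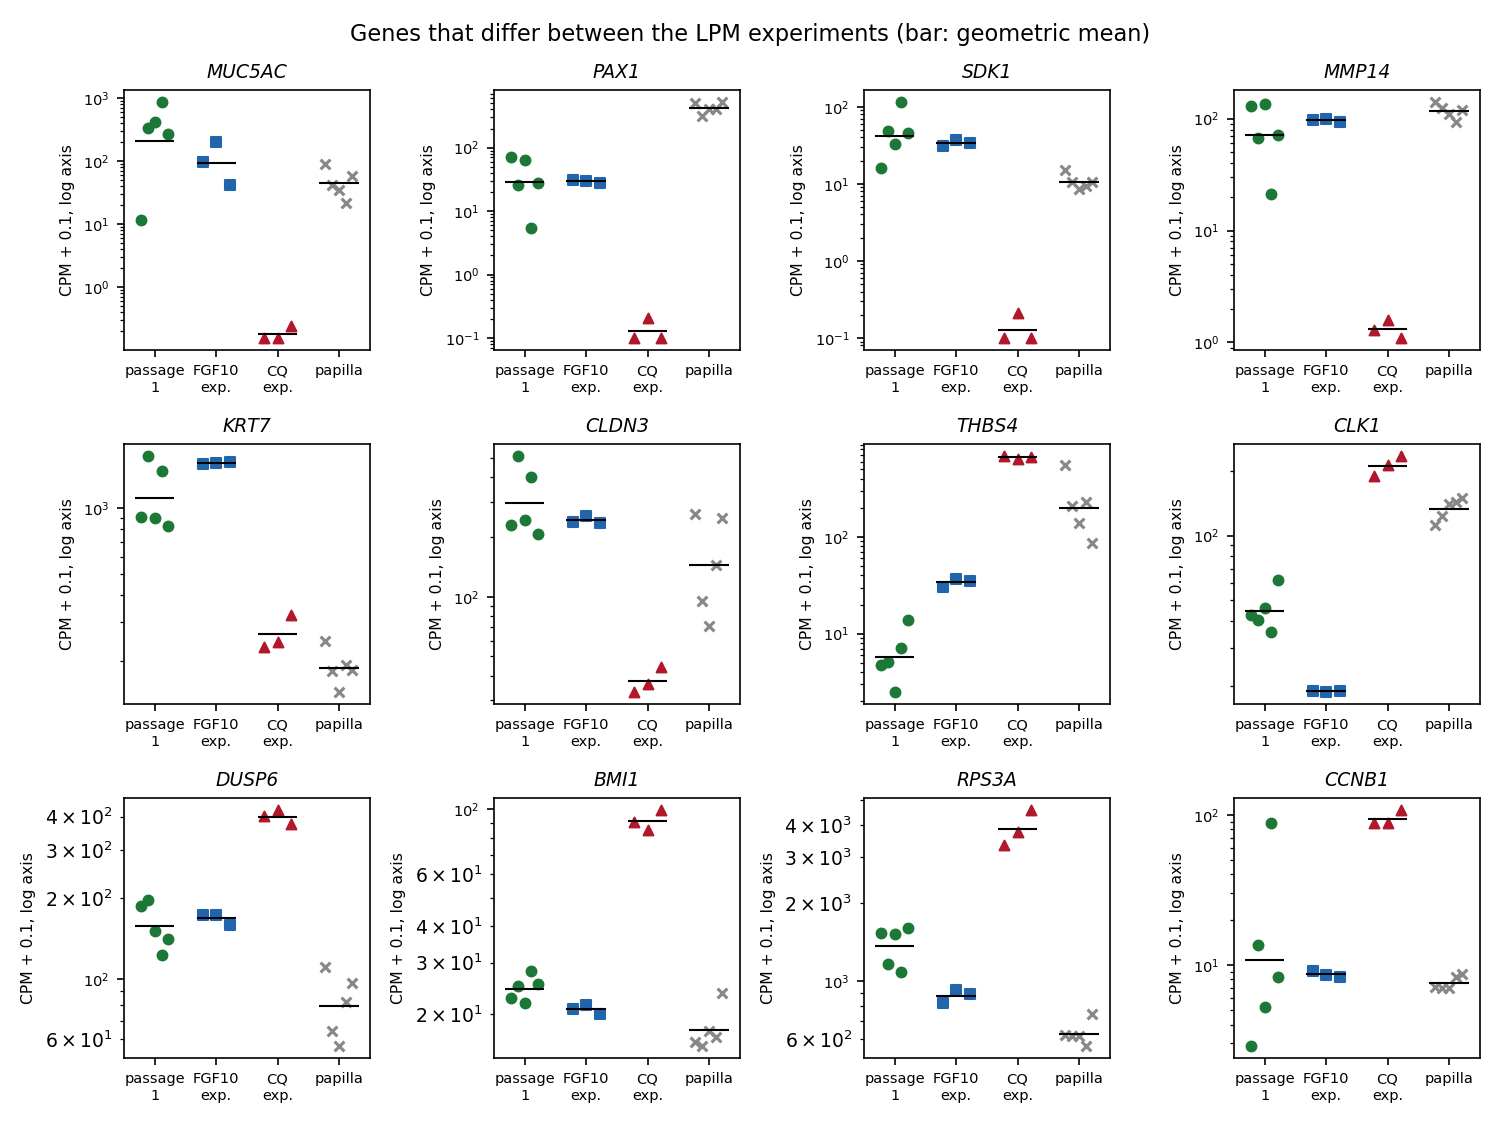
CPM + 0.1 on a log axis for 12 genes, with 1 point per library and a bar at the geometric mean. In the CQ experiment MUC5AC, PAX1, SDK1 and MMP14 are near or below 1 CPM, KRT7 and CLDN3 lie below the other organoids, and THBS4, CLK1, DUSP6, BMI1 and RPS3A lie above them; CCNB1 in pig 4 (88.5 CPM) reaches the level of the CQ experiment.

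The count of cell cycle genes depended on 1 pig. Their summed level was 371, 704, 387, 3370 and 794 CPM in pigs 1 to 5, 444 to 491 CPM in the FGF10 experiment and 1620 to 1770 CPM in the CQ experiment. Pig 4 was highest of all 11, and the CQ experiment lay between it and the rest. Against the FGF10 experiment 31 of 34 members were higher in the CQ experiment and none lower (median 2.04). Against the 5 pigs 0 of 34 passed in edgeR (median 0.75), 2 had an unadjusted p under 0.05 and 0 passed in DESeq2, whereas without pig 4, an alternative added after the data were seen, 22 of 34 were higher (median 1.86). In that fit 44.0% of all genes were called in either direction. MKI67, the proliferation antigen, had 4.91, 30.1, 7.28, 312 and 34.5 CPM in the pigs, 18.5, 21.5 and 25.7 CPM in the FGF10 experiment and 103, 98.8 and 66.8 CPM in the CQ experiment (2.00 against the FGF10 experiment, adjusted p = 1.71e-05, and 0.189 in the fit of all 11 libraries). Against the pigs it differed by 0.17 (adjusted p = 0.919), and by 2.16 without pig 4 (adjusted p = 0.019). CCNB1, the mitotic cyclin, had 88.2, 88.6 and 107 CPM in the CQ experiment, 88.5 CPM in pig 4 and 2.78 to 13.4 CPM in the other 7 libraries. Between the FGF10 experiment and the pigs 0 of 34 were called in edgeR and in DESeq2 and 1 had an unadjusted p under 0.05, with a median of -1.42 with pig 4 and -0.21 without it.

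Cytosolic ribosomal protein genes were higher in the CQ experiment, 35 of 50 against the pigs (median 0.88) and 45 of 50 against the FGF10 experiment (median 1.12), with none lower. Their summed level was 88000, 97100 and 126000 CPM, above the 46500 to 63300 CPM of the pigs and the 45700 to 48000 CPM of the FGF10 experiment. The counts and the sum include RPL18, taken up below, whose gene model differs between the annotations. It averaged 1540 CPM in the CQ experiment and 0 CPM in the pigs and the FGF10 experiment. RPS3A, of the small subunit, had 3360, 3760 and 4560 CPM beside 1090 to 1610 and 822 to 928 CPM (1.46 and 2.11, adjusted p = 0.000874 and 7.41e-07). RPL22, of the large subunit, had 833, 982 and 1330 CPM beside 233 to 355 and 193 to 201 CPM (1.80 and 2.37, adjusted p = 0.000424 and 1.51e-06). RPLP0, of the ribosomal stalk, differed less, at 4260 to 5700 CPM beside 2520 to 4020 and 2750 to 2870 CPM (0.46 and 0.74, adjusted p = 0.104 and 0.000193), and 7 members were in the stable core. Genes annotated as pseudogenes moved with the ribosomal proteins, 33 of 49 higher and 2 lower against the pigs (median 2.10), and 37 higher and 5 lower against the FGF10 experiment (median 2.53). Many ribosomal proteins have near-identical pseudogene copies between which the counting could split reads, and its part in the result was not tested.

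A few entries with different gene models were high in the CQ experiment, and the part of the annotation in this was not tested by a recount. RPL18 had 0 counts in the 8 other libraries and 1340, 1410 and 1880 CPM in the CQ experiment, where its exons cover 1354 bases in place of 593. CLIC1 had at most 0.0869 CPM beside 398, 408 and 558 CPM, with 3560 bases in place of 1595, and LDHB at most 3.75 CPM beside 603, 641 and 743 CPM, with 2697 bases in place of 1280. In the annotation of the CQ experiment the exons under each of these symbols lie on more than 1 chromosome. They are among the 24 tested genes with different exons, 13 of which were higher and 5 lower against the pigs, and without all such genes the number called was 5584 in place of 5603.

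Genes downstream of the growth factors in the medium did not shift one way. Of FGF and ERK targets, 8 of 22 were higher and 1 lower against the pigs (median 0.36), and 12 higher and 6 lower against the FGF10 experiment (median 0.41). In these comparisons 37.9 and 69.3% of all genes were called. By library size alone these targets were 5 higher and 2 lower against the pigs (median 0.13), and 12 and 6 against the FGF10 experiment (median 0.29). DUSP6, the phosphatase that limits ERK, had 186, 197, 150, 123 and 141 CPM in the pigs, 172, 173 and 159 CPM in the FGF10 experiment and 401, 422 and 374 CPM in the CQ experiment. The first 2 groups overlapped and the CQ experiment was above all of them, by 1.30 (SE 0.18, adjusted p = 0.000857) and 1.22 (SE 0.08, adjusted p = 3.22e-06). SPRY1, a feedback inhibitor of receptor signalling, had 153 to 185 CPM beside 52.6 to 89.9 CPM in the others, and the FGF-induced transcription factor ETV5 74.8 to 86.7 CPM beside 23.8 to 46.2 CPM. HBEGF and LIF, secreted ligands of the same list, were highest in the FGF10 experiment, at 118 to 130 and 58.4 to 59.3 CPM, beside 39.8 to 41.9 and 18.3 to 21 CPM in the CQ experiment (-1.65 and -1.64, adjusted p = 4.59e-07 and 6.11e-07).

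Wnt targets were 4 of 14 lower and none higher against the pigs (median -0.44), and 8 lower and 1 higher against the FGF10 experiment (median -0.84). Of all genes 37.9 and 69.3% were called in these comparisons. NKD2, a Wnt antagonist, had 7.87, 15.2, 15.1, 80.8 and 11.4 CPM in the pigs, 4.43, 5.86 and 5.23 CPM in the FGF10 experiment and 3 counts in all in the CQ experiment, a ratio of 513 (95% counting interval 175 to 2490) and 97.5 (33.1 to 475). TCF7, a transcription factor of the pathway, had 5.88 to 8.81 CPM beside 11.7 to 27.7 CPM in the others (-1.46 and -1.36, adjusted p = 0.00556 and 6.44e-05). AXIN2, the canonical feedback target, had 29.6 to 34.6 CPM in the CQ experiment beside 32.9 to 37.4 CPM in the FGF10 experiment (-0.21, 95% interval -0.44 to 0.02, adjusted p = 0.0886). Of Hedgehog genes 6 of 9 were lower than in the FGF10 experiment and none higher (median -0.68), again beside 69.3% of all genes called. GLI2, the pathway's transcription factor, had 0.332 to 0.916 CPM beside 2.34 to 3.31 CPM (-2.17, adjusted p = 0.00042).

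Notch genes were 11 of 16 lower and 4 higher against the FGF10 experiment (median -0.63), and 5 of 18 lower and 2 higher against the pigs (median -0.32). The shares of all genes called in either direction were 69.3 and 37.9%. The Notch ligands went apart. JAG1 had 553, 532 and 459 CPM in the CQ experiment beside 149 to 274 CPM in the pigs and 333 to 358 CPM in the FGF10 experiment (1.17 and 0.55, adjusted p = 0.00227 and 0.000782). JAG2 had 62.5 to 72.8 CPM beside 165 to 169 CPM in the FGF10 experiment (-1.32, adjusted p = 1.31e-06), within the 38.9 to 115 CPM of the pigs. The receptor NOTCH1 had 239 to 307 CPM beside 676 to 724 CPM (-1.39, adjusted p = 5.25e-06), the target HEY1 138 to 171 beside 103 to 112 CPM (0.46, adjusted p = 0.0011, and 0.213 in the fit of all 11 libraries), and the receptor-modifying LFNG 19.3 to 24.7 beside 60 to 64.7 CPM (-1.59, adjusted p = 1.86e-06). Among targets of TGF-beta and BMP 7 of 14 were higher and 3 lower against the FGF10 experiment (median 0.34), where 69.3% of all genes were called. The split was 5 and 5 by library size alone. Among those higher was ID1, an inhibitor of differentiation factors, at 43.1, 54.6 and 72.8 CPM beside 12.3 to 23.8 and 30.9 to 34.8 CPM (1.57 and 0.75, adjusted p = 0.00128 and 0.00235).

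Genes of mature taste cells differed by type. The type II list summed to 315 to 479 CPM in organoids and 399 to 550 CPM in papillae, and the type I list to 67 to 151 and 136 to 224 CPM. Both overlapped the tissue in the pigs and the FGF10 experiment. The CQ experiment lay below every papilla in both lists, at 315 to 378 and 67 to 82.5 CPM. Most of the type II sum in organoids was ITPR3, which averaged 262, 313 and 183 CPM in the pigs, FGF10 and CQ experiments. GNAT3, of the same list, averaged 2.12, 1.96 and 0.544 CPM, so the overlap in sums is not one of every member. No type III member and only 3 of 15 type II members reached 10 CPM in every library, and the type III list summed to 7.33 to 27.1 CPM in organoids against 65.5 to 165 CPM in papillae. PLCB2, the phospholipase of type II taste transduction, had 2.56, 0.702, 2.67, 0.488 and 0.965 CPM in the pigs, 0.939 to 1.45 CPM in the FGF10 experiment and 0, 0 and 0.19 CPM in the CQ experiment (-4.01 against the FGF10 experiment, adjusted p = 0.000609). TAS1R3, the shared sweet and umami receptor subunit, had 25.7 to 42.3, 24.3 to 26.8 and 18 to 27.7 CPM, and the CQ and FGF10 experiments differed by -0.30 (95% interval -0.63 to 0.03, adjusted p = 0.0976). Of type I genes, ENTPD2, which breaks down extracellular ATP, had 2.86 to 4.69 CPM beside 10.5 to 10.6 CPM in the FGF10 experiment (-1.51, adjusted p = 4.42e-05). SNAP25, the synaptic protein of type III cells, had 6.75, 8.42 and 7.82 CPM in the CQ experiment beside 1.89 to 4.1 and 4.29 to 4.55 CPM (1.39 and 0.75, adjusted p = 0.00634 and 0.00124), and SYT1, another, 0.114 to 0.715 CPM beside 6.03 to 6.88 CPM (-4.19, adjusted p = 1.18e-05). The insulin gene INS had 0 counts in all 11.

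Transcription factors of the mouth and matrix enzymes held members of both signs. FOXE1, of the oral epithelium, had 43.3, 48 and 45.2 CPM in the CQ experiment beside 220, 221 and 226 CPM in the FGF10 experiment (-2.32, adjusted p = 1.26e-07) and 48.6 to 225 CPM in the pigs. TFAP2C, of surface ectoderm, had 76 to 85.7 CPM beside 30.9 to 54.3 CPM in the others (0.81 and 0.63, adjusted p = 0.00654 and 0.000137). In all 5 of 24 oral and epithelial transcription factors were higher and 6 lower against the pigs (median -0.38), where 37.9% of all genes were called. TIMP2, an inhibitor of metalloproteinases, had 7.04, 5.94 and 6.07 CPM in the CQ experiment beside 60.2 to 259 CPM in the others (-4.51 and -3.61, adjusted p = 0.000842 and 5.39e-08), while TIMP4 had 27.4 to 38.9 beside 7.78 to 16.7 CPM and the urokinase PLAU 495 to 565 beside 196 to 392 CPM (0.97 and 0.51, adjusted p = 0.00716 and 0.000432, the latter 0.0559 in the fit of all 11 libraries).

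Antigen presentation genes were 9 of 16 lower and 1 higher against the pigs (median -0.96), and 11 of 15 lower and 1 higher against the FGF10 experiment (median -0.84). SLA-1, a class I heavy chain, had 183, 484, 185, 334 and 287 CPM in the pigs, 289, 297 and 286 CPM in the FGF10 experiment and 98.3, 99.5 and 126 CPM in the CQ experiment (-1.48 and -1.46, adjusted p = 0.00835 and 2.25e-06). SLA genes are near-identical and vary between animals, so their counts are uncertain. Of cytokine and NF-kB genes 8 of 22 were lower and 1 higher against the pigs (median -0.46), where 37.9% of all genes were called. TNFAIP2 had 49.8 to 54.3 CPM beside 183 to 418 CPM in the others (-2.40 and -2.73, adjusted p = 0.000627 and 4.33e-08), and the adhesion molecule ICAM1 0.284 to 0.44 CPM beside 2.52 to 16 CPM. Interferon-stimulated genes were 5 of 30 higher and 4 lower against the pigs (median -0.38). They were 9 of 28 higher and 7 lower against the FGF10 experiment (median 0.12). Of all genes 37.9 and 69.3% were called in either direction. By library size alone the interferon-stimulated genes were 4 higher and 8 lower, and 9 and 9 (medians -0.63 and 0). IFIT1 and IFIT3, which bind or regulate foreign RNA, were higher, at 3.15 to 3.93 and 4.36 to 5.21 CPM beside at most 0.599 and 1.34 CPM, and DDX60 lower, at 4.46 to 5.4 CPM beside 6.19 to 15.7 CPM (-1.20 from the pigs, adjusted p = 0.0122, and 0.0603 without replicate 1 of the CQ experiment).

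Metabolic lists were mixed too. They are read beside the 37.9% of all genes called against the pigs and the 69.3% called against the FGF10 experiment. Glycolysis and hypoxia genes were 5 of 32 higher and 1 lower against the pigs, and 14 higher and 5 lower against the FGF10 experiment (median 0.12). By library size alone they were 2 higher and 3 lower, and 13 higher and 11 lower (median -0.01). P4HA1, a hypoxia-induced collagen hydroxylase, had 375, 384 and 365 CPM beside 85.9 to 223 and 121 to 139 CPM (1.41 and 1.48, adjusted p = 0.00465 and 1.07e-06), and CA12, a carbonic anhydrase, 1080 to 1270 CPM beside 173 to 397 and 512 to 562 CPM. Oxidative phosphorylation genes were 3 of 16 higher and 2 lower against the pigs (median 0.25, and 0 by library size alone). Against the FGF10 experiment 12 of 16 were higher and 2 lower (median 0.57). Of these, NDUFV2 of complex I had 96 to 125 CPM beside 43.8 to 47.2 CPM (1.18, adjusted p = 9.72e-06) and SDHA of complex II 107 to 136 CPM beside 157 to 166 CPM (-0.50, adjusted p = 0.0011). Cholesterol synthesis genes were 3 of 22 higher and 8 lower against the pigs (median -0.50). The kinase MVK was lower, at 3.72 to 4.13 CPM beside 7.05 to 28.3 CPM in the others (-1.93 and -1.04, adjusted p = 0.00928 and 0.000195, the latter 0.0729 in the fit of all 11 libraries). The sterol carrier STARD4 had 61.9 to 76 CPM beside 14.5 to 48 CPM (1.00 from the pigs, adjusted p = 0.0118, and 0.0515 without replicate 1 of the CQ experiment).

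Stress and clock genes likewise had members of both signs. Of p53 and apoptosis genes 3 of 16 were higher and 6 lower against the pigs (median -0.34), where 37.9% of all genes were called. CCNG1, a p53 target, had 671, 674 and 714 CPM in the CQ experiment beside 356 to 408 and 256 to 273 CPM (0.79 and 1.36, adjusted p = 0.00166 and 6.46e-07), and BAX, a cell death effector, 51.3, 54.9 and 79.9 CPM beside 105 to 126 CPM in all others (-0.94 and -0.96, adjusted p = 0.00303 and 0.000258). The mitochondrial co-chaperone HSPE1 had 270 to 375 CPM beside 86.6 to 175 CPM, and HSP90B1, the chaperone of the endoplasmic reticulum, 601 to 663 CPM beside 291 to 400 CPM. Of clock genes, PER1 had 64.2 to 77.7 CPM beside 101 to 161 CPM in the others (-0.92 and -1.05, adjusted p = 0.00425 and 1.22e-05), and NR1D2, a repressor of the clock, 181 to 222 CPM beside 69.2 to 131 CPM (0.96 and 1.08, adjusted p = 0.00672 and 1.49e-05). SIK1, a cAMP-induced kinase, had 9.62 to 12.4 CPM beside 34.2 to 65.3 CPM (-2.28 and -1.91, adjusted p = 0.000507 and 4.99e-06), whereas PDE4B, also cAMP-induced, had 184 to 250 CPM beside 60.7 to 129 CPM. Time of harvest is not in the labels.

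Differences of the CQ experiment also went with the layout of genes. Genes with the same exons in both annotations were ordered by genomic span over exonic length, a ratio near 1 meaning few or short introns. In the lowest of 4 equal classes, with ratios from 1 to 3.27, 11.3% of genes were higher and 25.6% lower than in the pigs, with a median of -0.33. In the highest class, with ratios from 14.5 to 565, 24.4% were higher and 12.5% lower, with a median of 0.17. Against the FGF10 experiment the shares were 23.9% higher and 43.5% lower in the lowest class and 41.2% higher and 25.7% lower in the highest, with medians of -0.27 and 0.18. Between the FGF10 experiment and the pigs the medians of these classes were -0.08 and -0.02. By exonic length alone the 4 classes of the CQ experiment had medians of -0.16 to 0.06 against the pigs. The part of gene layout, and of any base composition that goes with it, in the differences above was not tested.

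Summed genes of other cell types lay under the papillae for glands, muscle and fibroblasts, and at or above them in some organoid groups for the immune and nerve lists. Gland cell genes summed to 1.1 to 116 CPM, against 46000 to 217000 CPM in papillae, and skeletal muscle genes to 2.27 to 16.3 CPM, against 660 to 14000 CPM. Fibroblast genes summed to 124 to 247 CPM in the pigs, 171 to 174 CPM in the FGF10 experiment and 50.8 to 66 CPM in the CQ experiment, against 2830 to 8970 CPM. The lower sum in the CQ experiment goes mainly with THY1, at 8.31 to 10.9 CPM beside 88.4 to 222 CPM in the others, and VIM, at 0.11 to 0.19 CPM beside 6.83 to 91.8 CPM, 468 to 768 CPM in papillae. FBLN1 went the other way, with a mean of 42 CPM beside 7.86 CPM in the pigs and 21.2 CPM in the FGF10 experiment. Of 6 tested members, 1 was higher and 3 lower against either group. Endothelium and pericyte genes summed to 42.6 to 150, 83.9 to 91.3 and 27.5 to 33.3 CPM, with KDR, the VEGF receptor, at 7.44 to 12.5 CPM in the CQ experiment beside 19.4 to 116 CPM (-2.30 from the pigs, adjusted p = 0.011, and 0.0524 without replicate 3 of the CQ experiment). PECAM1, of the same list, was higher, with a mean of 6.27 CPM beside 2.56 and 2.7 CPM. Against either group 2 of 5 tested members were lower and 1 higher. Immune cell genes summed to 102 to 326, 250 to 273 and 397 to 531 CPM, against 166 to 223 CPM in papillae, and KIT alone, a receptor kinase that epithelial cells can also carry, gave 291 to 453 CPM of the last. The lymphocyte markers CD3E and MS4A1, the macrophage marker CD163 and the mast cell protease CPA3 had 0 counts in all 11, as had STMN2 of the nerve list. The nerve list summed to 169 to 361 CPM in the pigs, 840 to 860 CPM in the FGF10 experiment and 690 to 719 CPM in the CQ experiment, against 404 to 676 CPM in papillae. NGFR gave most of it in these 2 experiments, at 817 to 837 and 676 to 702 CPM.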

How the data were processed

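RNA sequencing libraries of 11 LPM organoid cultures were analysed, with 5 foliate papillae as a reference. Papilla values come from a TMM scaling of papillae and organoids together, set to the mean scale of the organoids. The deposited files hold raw counts per gene, made with featureCounts (2.0.3 for passage 1 and the FGF10 experiment, 2.0.6 for the CQ experiment, per the file headers). The submitters' processing notes name STAR 2.7.10b, FastQC 0.11.9, MultiQC 1.14 and DESeq2. The labels do not say whether counting used strand. The 26838 genes of both annotations (27376 and 29851 entries) were kept, and an entry without a name, 0.326 to 0.44% of counts in the CQ experiment, was left out of totals and tests. Library totals of 18.91 to 26.5 (in units of 1e6 counts) set the counting precision.

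Each pair of groups was fitted alone with edgeR 4.0.16 (R 4.3.3; filterByExpr, TMM, quasi-likelihood F test), and genes with an adjusted p (Benjamini-Hochberg over all genes tested) under 0.05 were called. The 3 pairwise comparisons share libraries, so their values are given side by side. The fit was tested on simulated data. The stable core needs at least 10 CPM in all 11 libraries and a highest-to-lowest ratio of at most 2. SDs are of log2(CPM + 0.5). Alternatives were DESeq2 1.42.0, limma-voom (limma 3.58.1), other scalings and filters, shared exon models alone, a fit of all 11 libraries, a replicate block and leaving out each library. Genes with 0 counts in a group were compared with 3 counts over the group, and intervals of ratios of counts cover counting error only.

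Named were the markers, a few fixed genes, the 6 highest and 6 lowest called genes per comparison (average log2 CPM of at least 3, groups not overlapping), up to 2 called members per direction and list, the 15 most abundant core genes per kilobase, the 5 with the smallest ratios (at least 100 CPM) and the 8 most variable among pigs, of which the text gives a part. Core members of lists, SOX9, THY1, VIM, KRT10 and KRT19 were also named, some after their values were seen. The members and the 37 lists were chosen with earlier results of these data known. KRT14, XIST and DDX3Y were not analysed here, and a few genes are not reported here.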

Additional observations from a re-analysis of the deposited data

Results flagged for a closer look

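In the 5 passage 1 organoid cultures, 1 pig stood apart from the other 4 in 10 of 160 genes checked. The gap to the nearest other pig was over 0.71 of the whole range on the scale of log2(CPM + 0.5). Chance gives such a gap in about 1 in 20 groups, so several of 160 genes would show one by chance. Pig 1 stood apart at the low end in 2 secretory genes, MUC5AC at 11.4 CPM against 267 to 861 (gap 0.727 of the range) and DMBT1 at 0.869 against 40.6 to 114 (0.769). Pig 2 stood apart at the high end in XBP1, a transcription factor of secretory cells, at 604 CPM against 328 to 344 (0.922), FOXA2 at 172 against 95.6 to 110 (0.761) and CLCA2 at 194 against 82.6 to 99.9 (0.778). Pig 3 was high in COPB2, at 167 CPM against 145 to 151 (0.713). Pig 4 was low in HEY1, a Notch target, at 25.6 CPM against 62.9 to 81.9 (0.772), in MUC20 at 6.91 against 36.8 to 59.9 (0.77) and in ZMAT3 at 98 against 165 to 196 (0.751). It was high in NKD2, an inhibitor of Wnt signalling, at 80.8 CPM against 7.87 to 15.2 (0.723).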

How the results depend on the processing

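The comparison of passage 1 organoids with the FGF10 experiment depended most on the processing. In place of 82 genes it called 48 with no filter on low counts, 1318 with DESeq2, 1639 with limma-voom and 387 in the fit of all 11 libraries. Leaving out 1 library gave 0 to 496 genes. For the CQ experiment against passage 1 organoids the range over libraries left out was 3241 to 6423, and against the FGF10 experiment 8674 to 11168, with 6545 in the fit of all 11 libraries. The cause was not tested. The 3-group test gave 5530 to 8532 genes with 1 library left out. The stable core held 743 genes at a ratio of at most 1.5 and 6825 at a ratio of at most 3, and 3639 to 4344 with 1 library left out. With a pseudocount of 2 the median SD was 0.267 over pigs and 0.0661 in the FGF10 experiment, and over genes averaging 3 or more on the log2 CPM scale it was 0.283 and 0.0586. With 1 library left out it was 0.284 to 0.335 over pigs, 0.0591 to 0.069 in the FGF10 experiment and 0.0871 to 0.199 in the CQ experiment.

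Replicate numbers do not pair these libraries: deviations of libraries with the same number correlated at -0.16 to 0.14. With the number as a replicate block, 8875 genes passed the 3-group test and 61, 6391 and 9469 the pairwise tests, and KRT8 in the FGF10 experiment against the pigs turned to 0.11. MKI67 in the CQ experiment against the pigs moved to 3.03 under the block (adjusted p = 0.00243, edgeR). It turned to -0.12 by library size alone and to -0.14, -0.04, -0.13 and -0.03 without pigs 1, 2, 3 and 5, against 2.16 (adjusted p = 0.019, edgeR) without pig 4. Of 1815 alternative values of 121 gene results, 72 lost the call with 1 library left out and 22 under other settings. Depth limits genes near 3 counts per group, 0.0244, 0.0452 and 0.0529 CPM in the 3 groups.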
